A study of Rattus norvegicus with 18 samples.

Results

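The genes described here are 9 genes of regulatory T cells, Th17 cells and follicular helper T cells: Foxp3, Ctla4, Il2ra, Tnfrsf18, Ikzf2, Il10, Il21, Il23r and Ccr6. A gene was taken as measured when the RefSeq accession printed for an array probe mapped to its symbol. By that rule 8 of the 9 genes had a probe, through 9 of the 30367 probes on the array, and 15443 genes in all could be named. No probe mapped to Il23r, the receptor chain specific to interleukin-23, so it is not analysed here. Ctla4 had 2 probes and every other gene had 1. Of the 8 genes, 7 passed the filter on dim probes (at least 4 of 18 arrays with Cy5 well above background).

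RNA from blood of male rats of the Brown Norway (BN) strain, an inbred strain, and the Sprague Dawley (SD) strain, an outbred stock, was hybridised to 18 Agilent 2-colour arrays. The groups were BN rats given procainamide at 40 mg/kg (4 arrays), BN rats given sterile water (4 arrays, BN control), SD rats given procainamide at 40 mg/kg (5 arrays) and SD rats given sterile water (5 arrays, SD control). Procainamide is an antiarrhythmic drug that can induce lupus-like autoimmunity in patients, and the series set out to compare how rat strains respond to it. Cy5 carried the RNA of each array and Cy3, by the labels, that of control replicate 1 of its strain, and the labels give neither length of treatment nor age of the rats, nor do they state that arrays are separate animals. The p-values therefore measure the spread between these samples, which may be technical.

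Regulatory T cells restrain other T cells, a state set by the transcription factor Foxp3 and carried out in part through the surface receptor Ctla4, the high-affinity interleukin-2 receptor and the cytokine interleukin-10. Th17 cells respond to interleukin-23 and use the chemokine receptor Ccr6 to follow the chemokine Ccl20. Follicular helper T cells secrete interleukin-21, which drives B cells towards antibody secretion. In blood these genes are read out of a mixture of cells, and fewer cells of a type cannot be told apart from less RNA per cell. Several of them are made by other cells too: Ccr6 and Il10 by B cells, and Il10 by monocytes.

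Slide 3 carried the 4 BN procainamide arrays. Slide 2, scanned on another day than the others, carried the 4 BN controls with SD procainamide 4 and 5, and slide 1 carried SD procainamide 1 to 3 with the 5 SD controls. Treatment in BN rats and strain in the controls therefore cannot be told apart from slide, and a term for scan day rests on the SD procainamide arrays, the one group scanned on both days. The median Cy5 signal of an array was 1694 to 3187 in BN procainamide, 997 to 1986 in BN control, 1446 to 2628 in SD procainamide and 2152 to 2876 in SD control. On the array of control replicate 1, whose channels hold the same RNA by the labels, the log2 ratios of the 7 tested genes lay between -0.55 and 0.55 in BN and between -0.30 and 0.22 in SD. Over all tested probes the standard deviation of the log2 ratio there was 0.409 on the BN array and 0.252 on the SD array. The same RNA in both channels would give ratios near 0, and whether the label of the reference holds was not tested. Of 24 T cell marker genes 22 passed the filter, and each of these was well above background on at least 1 array of all 4 groups.

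Ikzf2 encodes Helios, a transcription factor of many regulatory T cells. Its probe was not well above background on any of the 18 arrays, with log2 Cy5 signals between 5.96 and 6.35, and it was not tested. Foxp3, Ctla4, Il2ra, Tnfrsf18, Il10 and Ccr6 were well above background on 18 of 18 arrays. Il21 was so on 17 of 18, the exception being 1 of the 4 BN control arrays.

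Il21, Ccr6 and Ctla4 rose in blood of BN rats given procainamide, and the other 4 tested genes did not pass the test. These 3 of 7 genes stand beside 21.8% of all 26446 probes tested that passed the same threshold in this comparison (adjusted p under 0.05, limma with Benjamini-Hochberg adjustment over all probes), 7.68% of all probes higher and 14.1% lower. Il21 rose 2.34-fold, Ccr6 1.55-fold and Ctla4 1.52-fold. Drug effects are differences in log2 Cy5/Cy3, the ratio of an array's own RNA to the strain's reference RNA, and the median difference over all genes was -0.02.

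Il21, a cytokine that follicular helper T cells secrete, had log2 ratios of 1.32, 0.91, 0.98 and 1.45 in BN procainamide 1 to 4, against -0.24, 0.06, 0.08 and -0.15 in BN control 1 to 4. All 4 BN procainamide arrays lay above all 4 BN control arrays. The means were 1.17 ± 0.26 in BN procainamide and -0.06 ± 0.16 in BN control (SD, n = 4 each), a difference of 1.23 ± 0.12 (SE; 95% confidence interval 0.97 to 1.48; limma adjusted p = 5.78e-06). Il21 passed under all 10 alternative settings, with differences of 1.14 to 1.86, and without each array in turn, with differences of 1.13 to 1.31.

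Ccr6 had log2 ratios of 0.50, 0.24, -0.42 and 0.63 in BN procainamide, against -0.55, -0.24, -0.17 and -0.60 in BN control. BN procainamide 3 lay within the range of the controls and the other 3 BN procainamide arrays lay above it. The difference was 0.63 ± 0.16 (SE; interval 0.28 to 0.98; adjusted p = 0.0115). Without BN procainamide 3 it was 0.85. The call was lost with scan day as a term (0.46, adjusted p = 0.526), with array brightness as a term (0.57, adjusted p = 0.217) and in a fit of the BN arrays alone (adjusted p = 0.105). Nor did Ccr6 pass with a replicate block.

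Ctla4, which competes with Cd28 for Cd80 and Cd86 and so dampens T cell activation, had log2 ratios of -0.24, 0.69, 0.23 and 0.11 in BN procainamide, against -0.47, -0.15, -0.51 and -0.48 in BN control. BN procainamide 1 overlapped the controls, and the others lay above all 4 of them. The difference was 0.60 ± 0.19 (SE; interval 0.21 to 0.99; adjusted p = 0.0281). The second Ctla4 probe gave 0.32 ± 0.23 and did not pass (adjusted p = 0.347). The first probe had 1 spot on the array and the second had 2. The call of the first probe was also lost without BN control 1, 3 or 4 or BN procainamide 2 or 3 (differences of 0.44 to 0.75 over all 8 arrays left out), in a fit of the BN arrays alone (adjusted p = 0.074), with scan day as a term (0.63, adjusted p = 0.434) and with array brightness as a term (0.15, adjusted p = 0.74). Ctla4 did not pass with a replicate block or with the mean over both probes either.

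The BN reference RNA, the same on both slides by the labels, gave a Ctla4 Cy3 signal 0.39 higher on slide 3, with the BN procainamide arrays, than on slide 2, with the BN controls. For Il21 this gap was 0.30 and for Ccr6 it was 0.03, where the median size over all probes was 0.19. In Cy5 alone, without division by the reference, the Ctla4 difference was 0.99, the Il21 difference 1.52, and Foxp3 passed too, at -0.30 (adjusted p = 0.0405). In BN arrays the slide and the treatment cannot be told apart for these genes.

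**Figure D1:**
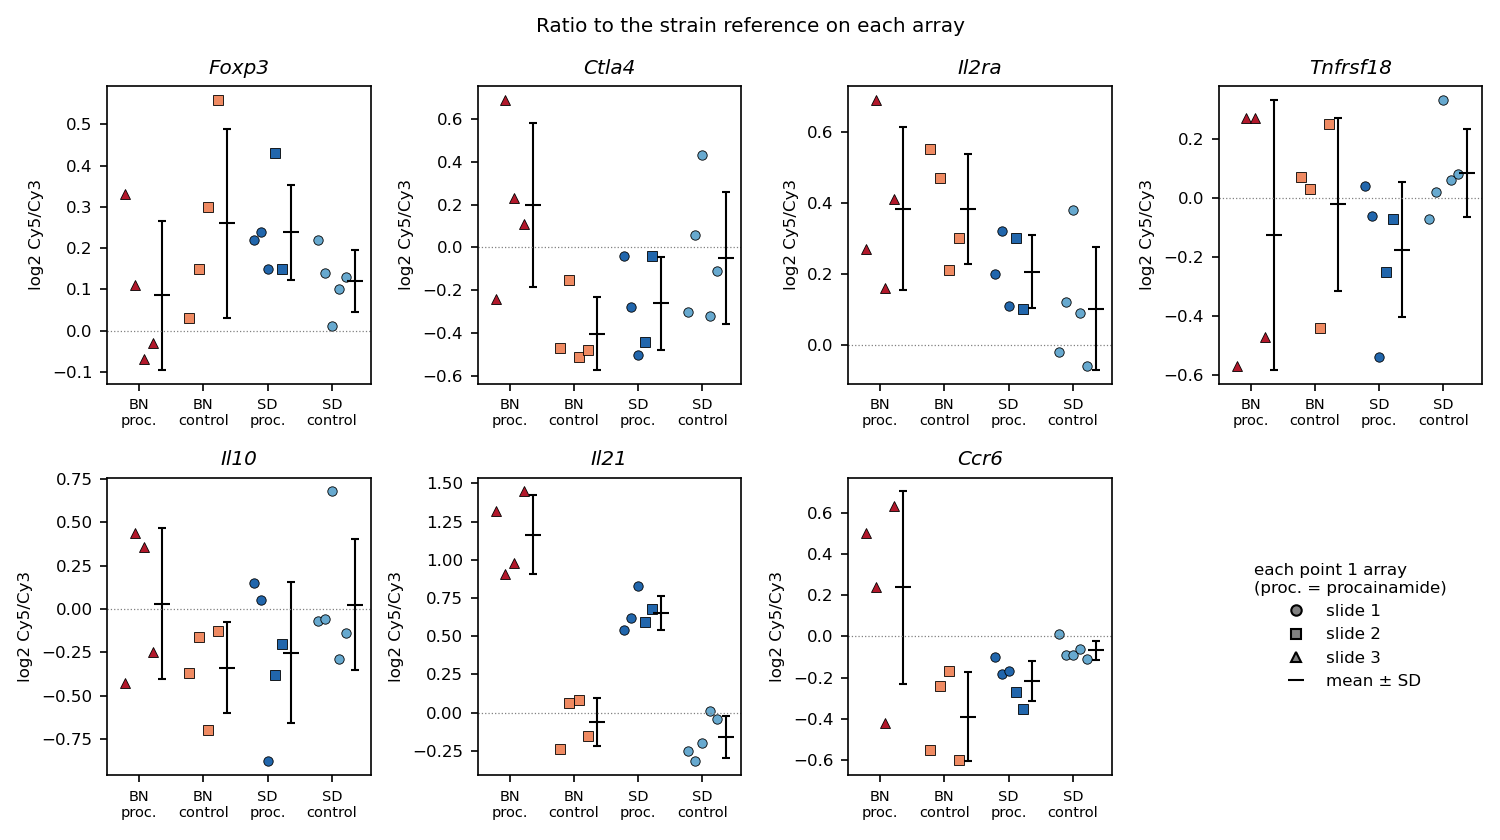
Log2 Cy5/Cy3 of each of the 7 tested genes (y axis) on each of 18 arrays in 4 groups (x axis), with each point 1 array, its shape the slide, and bars the mean ± SD of the group. Il21 is higher in all procainamide arrays than in all controls of the same strain, while Ctla4 and Ccr6 are higher in BN procainamide with overlap.

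Foxp3, Il2ra, Tnfrsf18 and Il10 did not pass in BN rats. Foxp3, the lineage-defining transcription factor, had log2 ratios of 0.33, 0.11, -0.07 and -0.03 in BN procainamide, against 0.03, 0.15, 0.30 and 0.56 in BN control. The groups overlapped, and the difference was -0.17 (interval -0.41 to 0.06; adjusted p = 0.29). Il2ra, the alpha chain that gives the interleukin-2 receptor its high affinity, ranged from 0.16 to 0.69 in BN procainamide and from 0.21 to 0.55 in BN control, with a difference of 0.00 (interval -0.25 to 0.25; adjusted p = 0.997).

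Tnfrsf18 encodes GITR, a co-stimulatory receptor abundant on regulatory T cells. It split the treated arrays: 0.27 in BN procainamide 2 and 3, and -0.57 and -0.47 in BN procainamide 1 and 4, against -0.44 to 0.25 in BN control. Its difference was -0.10 (interval -0.50 to 0.31; adjusted p = 0.757). Il10, an anti-inflammatory cytokine, split the same arrays: 0.44 and 0.36 in BN procainamide 2 and 3, and -0.43 and -0.25 in BN procainamide 1 and 4, against -0.70 to -0.13 in BN control. Its difference was 0.37, with an interval of -0.15 to 0.89 that includes changes of either sign (adjusted p = 0.311).

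The T cell markers as a whole stood beside these results as follows. In BN procainamide 2 of the 22 tested T cell markers rose and 1 fell, with a median of 0.17, where 8.99% of all 13616 named genes rose and 13.8% fell. Those counts are near or below the shares over all genes. The summed Cy5 signal of the 22 was 396200 to 421400 in BN procainamide and 330500 to 377500 in BN control, which do not overlap. The mean log2 ratio of the same 22 was -0.03 to 0.12 in BN procainamide and -0.28 to -0.02 in BN control, which overlap. Of the 12 B cell markers 1 fell, with a median of -0.17 and summed Cy5 signals of 194600 to 216500 in BN procainamide and 214400 to 240300 in BN control. Of 13 neutrophil markers 2 rose and 1 fell, with a median of 0.62, and of 10 NK cell markers 2 rose, with a median of 0.23. Of 9 platelet markers 4 fell, with a median of -0.32 and summed Cy5 signals of 83100 to 122900 in BN procainamide and 112500 to 143100 in BN control. Of 10 erythroid markers 1 fell, with a median of -0.36. Monocyte markers had a median of 0.03 and cell cycle genes one of 0.04. The part of these shifts in the Il21, Ccr6 and Ctla4 differences was not tested.

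The stretches of 250 bases before the start site are printed for the 3 genes that rose in BN blood, since those are the regions in which shared short motifs could be looked for. They are from RefSeq's promoter table for GRCr8, which held 7 of the 9 genes, and each reads 5′ to 3′ on the strand of the gene. Capitals mark matches, on either strand, to 3 motifs: GGAAA (the NFAT core), TTCNNNGAA (a STAT site) and TGANTCA (an AP-1 site). Il21 lies on chromosome 2 from 122045240 to 122055142, Ctla4 on chromosome 9 from 69812859 to 69819959 and Ccr6 on chromosome 1 from 55022037 to 55055857. The windows of Ctla4 and Ccr6 lie within those spans, before a start site downstream of the outermost one.
Il21, chr2:122055143-122055392, minus strand: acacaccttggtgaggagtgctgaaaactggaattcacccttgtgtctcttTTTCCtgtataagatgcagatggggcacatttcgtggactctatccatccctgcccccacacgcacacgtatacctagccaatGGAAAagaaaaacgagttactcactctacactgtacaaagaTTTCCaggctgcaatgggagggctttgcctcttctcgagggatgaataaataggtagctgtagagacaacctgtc
Ctla4, chr9:69813171-69813420, plus strand: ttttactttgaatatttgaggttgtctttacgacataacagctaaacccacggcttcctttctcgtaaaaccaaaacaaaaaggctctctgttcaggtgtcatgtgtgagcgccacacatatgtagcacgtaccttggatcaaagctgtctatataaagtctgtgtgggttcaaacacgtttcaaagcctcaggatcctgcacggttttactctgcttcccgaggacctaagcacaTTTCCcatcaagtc
Ccr6, chr1:55046129-55046378, minus strand: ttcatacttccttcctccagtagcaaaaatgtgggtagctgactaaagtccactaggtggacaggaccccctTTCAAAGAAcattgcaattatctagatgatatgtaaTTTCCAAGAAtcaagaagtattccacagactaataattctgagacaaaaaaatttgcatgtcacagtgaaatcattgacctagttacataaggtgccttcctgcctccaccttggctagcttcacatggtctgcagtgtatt

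Il21 held 3 matches to the NFAT core, Ctla4 held 1 and Ccr6 held 1. In Ccr6 that match overlapped the second of 2 STAT-site matches. None of the 3 windows held the AP-1 letters. Over all promoters of the table, 56.9% held the NFAT core, 7.67% the STAT site and 6.34% the AP-1 site within the same length. Of the 7 listed genes in that table, 5 held the NFAT core, among them Foxp3, which did not rise, and Il23r, which had no probe. NFAT factors act downstream of the T cell receptor's calcium signal and STAT factors downstream of cytokine receptors, and a match is a description of these letters only.

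In SD rats given procainamide Il21 rose 1.76-fold, and no other of the 7 genes passed (1 of 7, beside 2.75% of all probes, 1.36% higher and 1.39% lower). The log2 ratios of Il21 were 0.54, 0.62, 0.83, 0.59 and 0.68 in SD procainamide 1 to 5, against -0.25, -0.32, -0.20, 0.01 and -0.04 in SD control 1 to 5. All 5 SD procainamide arrays lay above all 5 SD control arrays, and the arrays on slides 1 and 2 overlapped. The means were 0.65 ± 0.11 in SD procainamide and -0.16 ± 0.14 in SD control (SD, n = 5 each), a difference of 0.81 ± 0.11 (SE; interval 0.59 to 1.04; adjusted p = 0.00111). Within slide 1 alone, where both SD groups shared a slide and a scan day, the difference was 0.83 (limma adjusted p = 0.0187).

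Ccr6 ranged from -0.35 to -0.10 in SD procainamide and from -0.11 to 0.01 in SD control, a difference of -0.15 (interval -0.46 to 0.16; adjusted p = 0.671). SD procainamide 4 and 5, on slide 2, gave -0.27 and -0.35. These lay below SD procainamide 1 to 3, on slide 1, at -0.10, -0.18 and -0.17, and the same held in Cy5. The BN controls lay on slide 2 as well. Ctla4 ranged from -0.50 to -0.04 in SD procainamide and from -0.32 to 0.43 in SD control, a difference of -0.21 (interval -0.56 to 0.14; adjusted p = 0.563). Both point estimates had the opposite sign to those of BN rats. Foxp3 differed by 0.12, Il2ra by 0.10, Tnfrsf18 by -0.26 and Il10 by -0.27, with adjusted p-values of 0.473 to 0.689 for these 4 genes. Il10 had single arrays at both ends: SD procainamide 3 at -0.88 and SD control 3 at 0.68.

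Markers of other cells moved in the SD arrays as well. Of 16 cell cycle genes 2 rose, with a median of 0.45, and their mean log2 ratio was 0.29 to 0.52 in SD procainamide and -0.22 to 0.23 in SD control, which do not overlap. None of 9 platelet markers passed, with a median of -0.43, and their summed Cy5 signal was 69870 to 78490 in SD procainamide and 83980 to 96610 in SD control, which do not overlap either. None of the 22 T cell markers passed, with a median of 0.09. The part of these shifts in the Il21 difference was not tested.

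The responses of the strains differed for Ctla4 and Ccr6 (2 of 7 genes, beside 11.1% of all probes, 2.59% with a higher response in BN and 8.56% with a lower one). The BN response exceeded the SD response by 0.81 ± 0.25 for Ctla4 (SE; interval 0.29 to 1.34; adjusted p = 0.0429) and by 0.78 ± 0.22 for Ccr6 (interval 0.31 to 1.24; adjusted p = 0.0307). Both calls stood near the threshold: the Ctla4 call was lost when any 1 of 12 of the 18 arrays was left out and the Ccr6 call when any 1 of 8 was, and both were lost with scan day or array brightness as a term and with a replicate block. Over the whole array the probes called then numbered 0 with scan day, 6 with brightness and 1364 with the replicate block, where they were 2948 without these. The second Ctla4 probe gave 0.42 (adjusted p = 0.408).

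For Il21 the BN response was larger by 0.41 ± 0.16, with an interval of 0.07 to 0.76, and did not pass after adjustment (adjusted p = 0.111). In Cy5 alone Il21 did pass (0.70, adjusted p = 0.00628), as did Foxp3 (-0.42, adjusted p = 0.0387) and Il10 (0.91, adjusted p = 0.0389). In log2 ratios Il10 gave 0.64 (interval -0.06 to 1.34; adjusted p = 0.226) and Foxp3 gave -0.29 (interval -0.61 to 0.02; adjusted p = 0.222). Tnfrsf18 gave 0.16 and Il2ra gave -0.10, both with an adjusted p of 0.732.

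**Figure D2:**
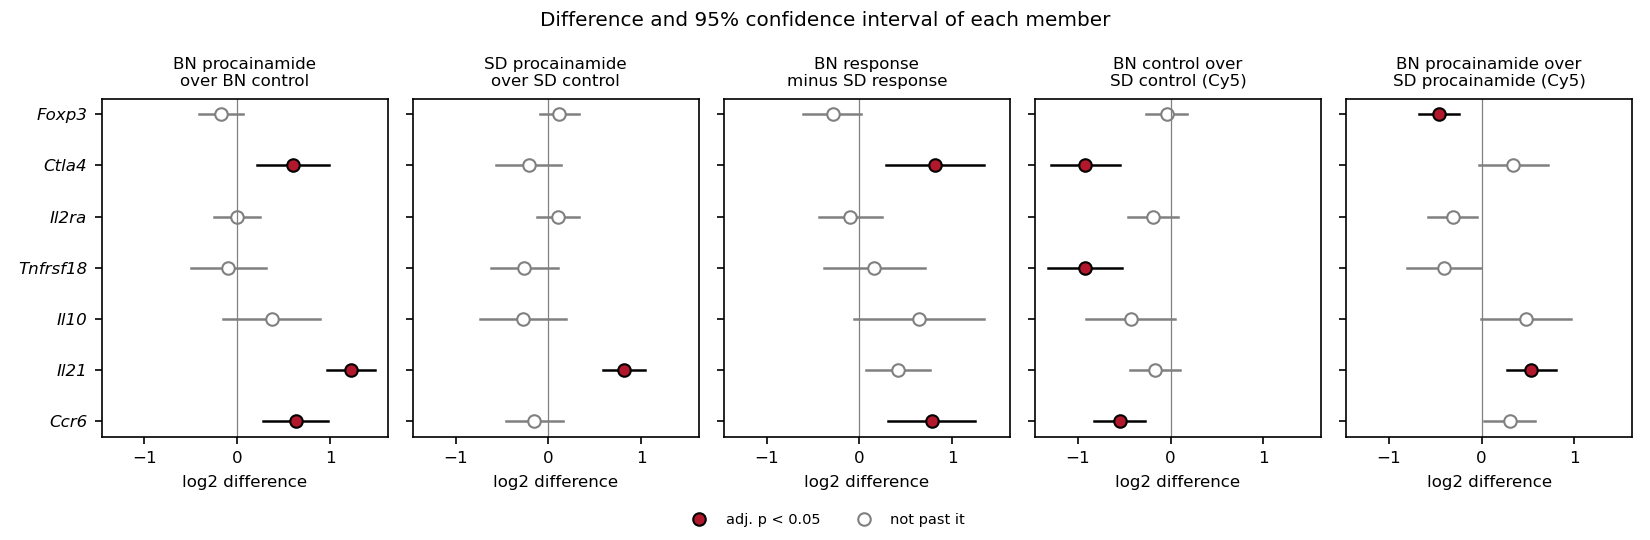
Log2 difference (x axis) of each of the 7 tested genes (y axis) in 5 comparisons, with points the limma estimate, lines its 95% confidence interval and filled points those with adjusted p under 0.05. Il21 is filled in both drug responses, at 1.23 in BN and 0.81 in SD, while Ctla4 and Ccr6 are filled in the BN response and in the difference between responses.

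The strains were compared in log2 Cy5, since their reference RNAs differed. Ctla4, Tnfrsf18 and Ccr6 were lower in BN control than in SD control, by 1.89-fold, 1.89-fold and 1.47-fold (3 of 7 genes, beside 38.5% of all probes, 21.2% higher and 17.3% lower). Ctla4 had log2 Cy5 signals of 7.67, 7.86, 7.41 and 7.68 in BN control, against 8.40, 8.68, 9.04, 8.30 and 8.45 in SD control. All BN control arrays lay below all SD control arrays, with a difference of -0.92 ± 0.18 (SE; adjusted p = 0.000794). The second Ctla4 probe gave -0.48 (adjusted p = 0.0875).

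Tnfrsf18 had log2 Cy5 signals of 12.92, 12.90, 12.29 and 13.06 in BN control, against 13.57, 13.66, 13.90, 13.66 and 13.76 in SD control. Ccr6 had 14.29, 14.58, 14.57 and 14.25 in BN control, against 15.10, 14.92, 14.98, 14.96 and 14.91 in SD control. For both genes the groups did not overlap, with differences of -0.92 ± 0.19 for Tnfrsf18 (adjusted p = 0.00134) and -0.55 ± 0.13 for Ccr6 (adjusted p = 0.00325). The 4 other genes did not pass: Foxp3 differed by -0.04, Il2ra by -0.19, Il21 by -0.17 and Il10 by -0.43, with adjusted p-values of 0.146 to 0.795.

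BN controls lay on slide 2 and SD controls on slide 1. With scan day as a term the differences were -0.73 for Ctla4 (adjusted p = 0.285), -0.75 for Tnfrsf18 (adjusted p = 0.314) and -0.21 for Ccr6 (adjusted p = 0.693), and the number of probes called over the whole array was 372, where it was 10183 without that term. The Ccr6 call was also lost with slide as a random block (-0.45, adjusted p = 0.0549) and with the processed signals (-0.18, adjusted p = 0.269). Platelet markers differed between these groups too, 6 of 9 being higher in BN control with a median of 0.50, as did neutrophil markers, 5 of 13 higher and 1 lower with a median of 0.26. The part of these in the 3 differences was not tested. The Cy3 channel of slide 2 held the reference RNA of both strains, 1 RNA a strain, so it allows no test. There the difference, BN reference minus SD reference, was -0.63 for Tnfrsf18, -0.58 for Il2ra, -0.38 for Ctla4, -0.27 for Il21, -0.16 for Foxp3, -0.11 for Il10 and -0.07 for Ccr6, where the median size over all probes was 0.14. All 7 genes read lower in the BN reference on slide 2. The BN reference on slide 3 minus the SD reference on slide 1 was 0.19 for Il10 and 0.02 for Il21, and below 0 for the other 5 genes.

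**Figure D3:**
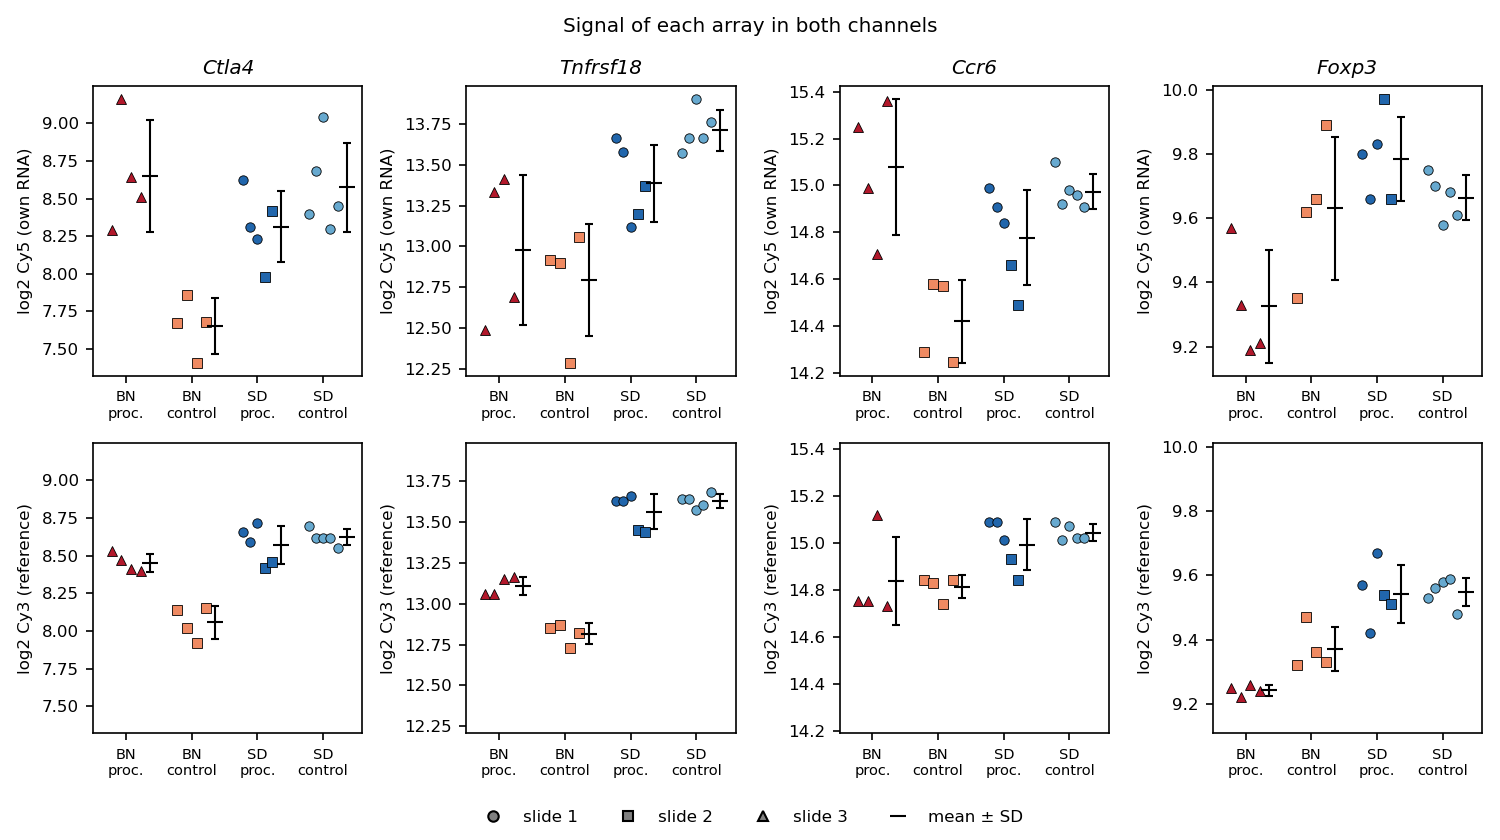
Log2 signal (y axis) of Ctla4, Tnfrsf18, Ccr6 and Foxp3 on each array, with its own RNA in Cy5 in the upper panels and the strain's reference RNA in Cy3 in the lower ones, by group (x axis), point shape giving the slide and bars the mean ± SD. Ctla4 in Cy5 is 7.41 to 7.86 in BN control, below all other groups, and its BN reference also reads lower on slide 2 than on slide 3.

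Among rats given procainamide, Foxp3 was lower and Il21 higher in BN than in SD (2 of 7 genes, beside 19.8% of all probes, 8.34% higher and 11.5% lower). All BN procainamide arrays lay on slide 3, which held no SD array, so strain and slide cannot be told apart here. Foxp3 had log2 Cy5 signals of 9.57, 9.33, 9.19 and 9.21 in BN procainamide, against 9.80, 9.66, 9.83, 9.97 and 9.66 in SD procainamide. All BN arrays lay below all SD arrays, with a difference of -0.46 ± 0.11 (1.37-fold lower; SE; interval -0.68 to -0.24; limma adjusted p = 0.00696). It passed under all 10 alternatives, with differences of -0.61 to -0.38, and without each array in turn, with differences of -0.54 to -0.41. The BN reference on slide 3 minus the SD reference on slide 1 was -0.31 for Foxp3.

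Over the 4 groups Foxp3 averaged 9.32 ± 0.18 in BN procainamide, 9.63 ± 0.22 in BN control, 9.78 ± 0.13 in SD procainamide and 9.67 ± 0.07 in SD control (SD of log2 Cy5, n = 4, 4, 5 and 5). From high to low the order was SD procainamide, SD control, BN control and BN procainamide. The controls of the strains did not differ beyond their spread, and neither did procainamide and control within a strain in log2 ratios. The difference between the strains' Foxp3 responses did not pass in log2 ratios and passed in Cy5 alone, as given above.

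Il21 had log2 Cy5 signals of 8.67, 8.24, 8.92 and 8.88 in BN procainamide, against 7.95, 8.21, 8.31, 8.07 and 8.18 in SD procainamide. BN procainamide 2 lay within the SD range and the other BN arrays above it, with a difference of 0.53 ± 0.13 (1.45-fold higher; adjusted p = 0.008), which was 0.49 and did not pass with the scanner software's processed signals (adjusted p = 0.0764). Il21 averaged 8.68 ± 0.31 in BN procainamide, 7.15 ± 0.12 in BN control, 8.14 ± 0.14 in SD procainamide and 7.32 ± 0.15 in SD control (SD of log2 Cy5). From high to low the order was BN procainamide, SD procainamide, SD control and BN control. The controls did not differ beyond their spread, with a difference of -0.17 and an adjusted p of 0.298.

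Ctla4 averaged 8.65 ± 0.37 in BN procainamide, 7.65 ± 0.19 in BN control, 8.31 ± 0.24 in SD procainamide and 8.57 ± 0.30 in SD control (SD of log2 Cy5). Ccr6 averaged 15.08 ± 0.29 in BN procainamide, 14.42 ± 0.18 in BN control, 14.78 ± 0.20 in SD procainamide and 14.98 ± 0.07 in SD control. For both genes the order from high to low was BN procainamide, SD control, SD procainamide and BN control. Tnfrsf18 averaged 12.98 ± 0.46 in BN procainamide, 12.79 ± 0.34 in BN control, 13.39 ± 0.23 in SD procainamide and 13.71 ± 0.13 in SD control, so that both SD groups lay above both BN groups in their means.

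Il2ra averaged 8.64 ± 0.24 in BN procainamide, 8.57 ± 0.14 in BN control, 8.96 ± 0.15 in SD procainamide and 8.76 ± 0.22 in SD control. Il10 averaged 9.53 ± 0.39 in BN procainamide, 8.92 ± 0.33 in BN control, 9.05 ± 0.41 in SD procainamide and 9.35 ± 0.33 in SD control. Neither gene passed between procainamide and control in log2 ratios in either strain, nor between the strains in Cy5, given procainamide or water. Between the treated strains Ctla4 differed by 0.34, Il2ra by -0.31, Tnfrsf18 by -0.41, Il10 by 0.48 and Ccr6 by 0.30, with adjusted p-values of 0.0893 to 0.187. The Il2ra difference passed with array brightness as a term (-0.45, adjusted p = 0.0193) and with the processed signals (-0.57, adjusted p = 0.0201), and the Ccr6 difference passed without BN procainamide 3 (0.42). Neutrophil markers also differed between these groups: 9 of 13 were higher in BN, with a median of 1.21 and summed Cy5 signals of 103900 to 178600 in BN procainamide and 76070 to 112300 in SD procainamide. The part of that in the Foxp3 and Il21 differences was not tested.

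The molecules that work with these genes as ligands, co-receptors and signal carriers were counted as a list of 23, of which 20 were tested. In BN rats given procainamide 6 of the 20 rose and 2 fell, with a median of 0.26, and in SD rats 2 rose, with a median of 0.06. Over all genes 8.99% rose and 13.8% fell in BN, with a median of -0.02, and 1.42% rose and 1.76% fell in SD, with a median of -0.01. The 6 that rose in BN include Il2, whose probe was dim, and Stat3, and the 2 that fell include Cd80. In Cy5 neither Stat3 nor Cd80 moved that way, as given below. Ccl20, the chemokine ligand of Ccr6, had the largest difference of the 20 in both strains. Its log2 ratios were 2.18, 2.86, 2.07 and 2.02 in BN procainamide, against -0.21, -0.55, -0.45 and -0.15 in BN control. They were 1.08, 1.54, 1.40, 0.85 and 1.15 in SD procainamide, against -0.12, -0.53, 0.19, -0.14 and -0.43 in SD control. Neither pair of groups overlapped.

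The Ccl20 probe was well above background on all BN and SD procainamide arrays and all BN control arrays, but on 2 of the 5 SD control arrays. Ccl20 rose 6.17-fold in BN (2.62 ± 0.19; adjusted p = 2.61e-07) and 2.66-fold in SD (1.41 ± 0.17; adjusted p = 0.000654), and the responses differed by 1.21 (adjusted p = 0.00668). The SD value and the difference between responses rest on those mostly dim SD controls. Il12rb1, a receptor chain that interleukin-12 and interleukin-23 share, rose 1.52-fold in BN (adjusted p = 0.00194) and 1.38-fold in SD (adjusted p = 0.0264). Il12rb1 averaged 1.01 ± 0.17 in BN procainamide and 0.40 ± 0.14 in BN control, and 0.66 ± 0.20 in SD procainamide and 0.18 ± 0.15 in SD control (log2 ratio ± SD).

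Il2rg, Stat3 and Il10rb passed in BN alone, which is not a test of a difference from SD. Il2rg, the receptor chain shared by interleukin-2 and interleukin-21, rose 1.65-fold in BN (0.72 ± 0.10; adjusted p = 0.000141), and its response differed from that of SD by 0.63 (adjusted p = 0.00685). Stat3, which carries the signals of interleukin-21, interleukin-10 and interleukin-23, rose 1.44-fold in BN in log2 ratios (adjusted p = 0.00786). Its log2 Cy5 signals were 12.77, 12.24, 12.29 and 12.58 in BN procainamide, against 11.66, 13.2, 12.9 and 12.61 in BN control. The treated arrays lay within the range of the controls, so Stat3 did not rise in Cy5. Il10rb, the second chain of the interleukin-10 receptor, rose 1.37-fold in BN (adjusted p = 0.0358). Its log2 ratios were -0.40 and -0.51 in SD procainamide 4 and 5, on slide 2. They were -0.22, -0.03 and -0.21 in SD procainamide 1 to 3, on slide 1. In log2 Cy5 all arrays of slide 2, the BN controls among them, read 14.04 or less for Il10rb, and all others 14.08 or more. Slide and treatment cannot be told apart in BN arrays for this gene.

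Stat5b, which carries interleukin-2 signals, and Cd80, a ligand of Ctla4 and Cd28, fell in BN by 0.47 and 0.35 in log2 ratios (adjusted p = 0.0134 and 0.0154). The log2 Cy5 signals of Cd80 were 8.63, 8.79, 8.54 and 8.58 in BN procainamide, against 8.45, 8.52, 8.55 and 8.66 in BN control. These groups overlapped, and Cd80 did not fall in Cy5. The Stat5b response differed from that of SD by -0.78 (adjusted p = 0.00757). Stat5b log2 ratios were 0.58 and 0.76 in SD procainamide 4 and 5, on slide 2. They were 0.11, 0.22 and 0.25 in SD procainamide 1 to 3, on slide 1. In log2 Cy5 all arrays of slide 2, the BN controls among them, read 10.54 or more for Stat5b, and all others 10.28 or less. For Stat5b slide and treatment cannot be told apart in BN arrays. Il2 was called in BN as well, but its probe was not well above background on any BN procainamide array and was so on 2 of 4 BN control arrays. Its log2 Cy5 signals were 6.79, 6.81, 6.79 and 7.01 in BN procainamide, against 7.44, 7.72, 6.92 and 6.87 in BN control, which runs opposite to the log2 ratio, so no difference is given.

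**Figure D4:**
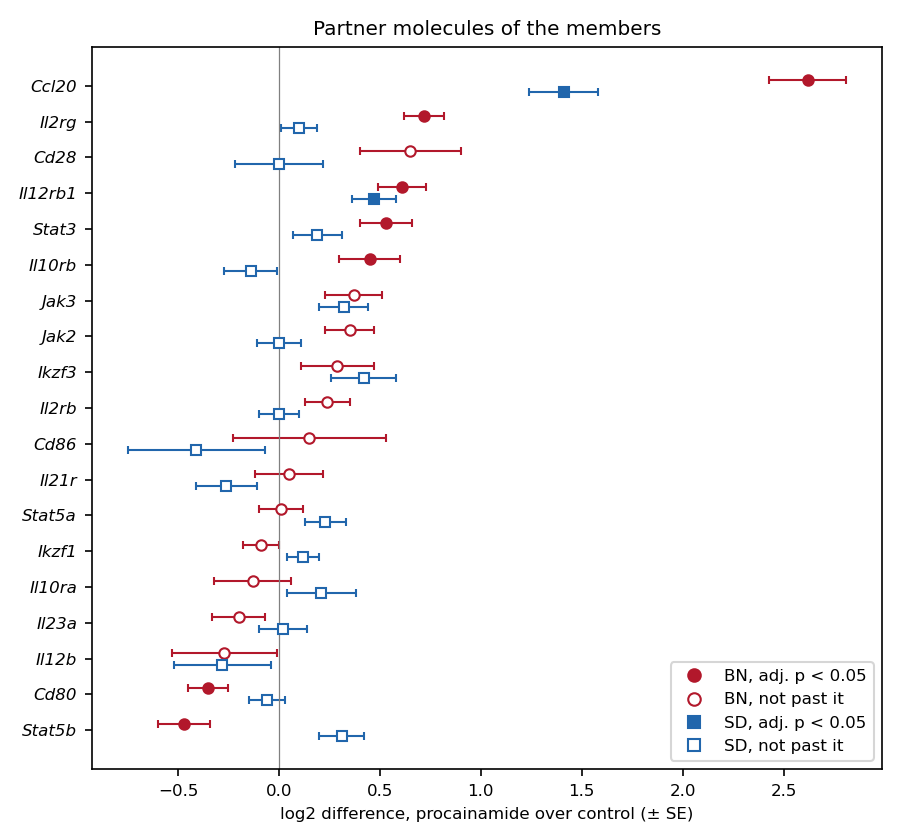
Log2 difference ± SE (x axis) of procainamide over control for 19 of the 20 tested partner molecules (y axis, Il2 left out because its probe was dim), with circles for BN, squares for SD and filled symbols for adjusted p under 0.05. Ccl20 stands apart at 2.62 in BN and 1.41 in SD, and Il12rb1 is the other gene filled in both strains.

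Among a wider list of regulatory T cell genes, 6 of 25 tested rose and 2 fell in BN rats given procainamide, with a median of 0.11, beside 8.99% and 13.8% of all genes. The list includes Foxp3, Ctla4, Il2ra, Tnfrsf18 and Il10 given above, and Ctla4 is among the 6 that rose. Entpd1, an ectoenzyme that breaks down extracellular ATP, rose 2.19-fold (adjusted p = 1.04e-05) and Tnfrsf4 (OX40), a co-stimulatory receptor, rose 2.00-fold (adjusted p = 9.28e-05). Lag3, an inhibitory receptor, rose 1.52-fold, and Havcr2 (TIM-3), another, fell by 0.49 on the log2 scale. In SD rats 3 of 25 rose and 1 fell, with a median of 0.00, beside 1.42% and 1.76% of all genes: Lag3 rose 1.63-fold, Tnfrsf4 1.49-fold and Entpd1 1.36-fold, and Nt5e (CD73), which makes adenosine, fell by 0.58 on the log2 scale. The Entpd1 response was larger in BN by 0.69 (adjusted p = 0.0109). In Cy5 Entpd1 was 2.01-fold lower in BN control, on slide 2, than in SD control, on slide 1 (limma adjusted p = 8.59e-05). Between the treated strains it differed by 0.18 and did not pass (limma adjusted p = 0.402).

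Among the Th17 genes, 4 of 17 rose and 2 fell in BN, with a median of -0.06, beside the same shares and a median of -0.02 over all genes. Beside Ccl20, Il12rb1 and Stat3 given above, of which Stat3 did not rise in Cy5, the fourth to rise was Ccr6. Il9, a cytokine, fell by 0.87 and Il6r, the interleukin-6 receptor, by 0.36 on the log2 scale. In SD 2 of 17 rose, Ccl20 and Il12rb1, and Il6r fell by 0.32. Among the follicular T cell genes, Il21 was the 1 of 18 that rose in BN, while Tox2 and Ascl2, transcription factors that promote that lineage in mice, fell by 0.31 and 0.47. In SD 2 of 18 rose, Il21 and Sh2d1a (1.40-fold), an adaptor of SLAM receptors. The medians of the follicular genes were 0.15 in BN and 0.01 in SD. The counts that fell in BN among Th17 and follicular genes, and the 1 follicular gene that rose there, are near the shares over all genes.

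Between BN control and SD control, 5 of 25 regulatory T cell genes were higher and 9 lower in BN, with a median of -0.18 beside -0.06 over all genes. The 9 lower ones include Ctla4 and Tnfrsf18, given above. Of all genes 16.3% were higher and 20.5% lower, and the counts of higher genes, 5 of 25 here and those of the lists below, are near that share. Bach2, a transcription repressor, was higher by 2.19 and Prdm1, which it represses, by 0.82, while Ccr4, a chemokine receptor, was 2.53-fold lower and Entpd1 2.01-fold lower. Of the Th17 genes 3 of 17 were higher, among them Irf4 by 0.89 and Il12rb1 by 0.65, and 2 were lower, Ccr6 and Il6st (-0.34). Of the follicular genes 2 of 18 were higher, among them P2rx7 by 0.36, and 5 lower, among them Cd40lg (-1.07), Btla (-0.67) and Ascl2 (-0.65). These counts share the slide arrangement of the control comparison given above.

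Of the 20 partners, 4 were higher in BN control than in SD control and 5 lower, close to the shares over all genes. Stat5b was higher by 0.67 and Il12rb1 by 0.65. The other 2 were Il2, well above background on 2 of 4 BN control and 1 of 5 SD control arrays, and Ccl20, so on 4 of 4 and 2 of 5, and no difference is given for these dim probes. The differences of the lower ones were -1.38 for Il12b, a subunit of interleukin-12 and interleukin-23, -0.48 for Il21r, the interleukin-21 receptor, -0.33 for Cd80, -0.32 for Ikzf1 and -0.31 for Jak2. Strain and slide cannot be told apart in these control values. In log2 Cy5 Cd80 read 8.18 and 8.45 in SD procainamide 4 and 5, on slide 2 with the BN controls. It read 8.85, 8.87 and 8.87 in SD procainamide 1 to 3, on slide 1. For Stat5b, SD procainamide 4 and 5 lay above SD procainamide 1 to 3, as given above.

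Between BN procainamide and SD procainamide, 5 of 25 regulatory T cell genes were higher and 1 lower in BN, and the lower one was Foxp3. Of all genes 9.48% were higher and 9.55% lower. Bach2 was higher by 2.06, Prdm1 by 0.88, Lag3 by 0.84 and Il2rb, the signalling beta chain of the interleukin-2 receptor, by 0.65. Of the Th17 genes 3 of 17 were higher: Ccl20 by 1.40, Irf4 by 1.00 and Il12rb1 by 0.42. Of the follicular genes Il21 was higher and Ascl2 lower (-0.76). Of the partners 5 were higher, Ccl20, Il2rb, Cd28 by 0.90, Il12rb1 and Il10rb by 0.39, and 1 lower, Il12b (-1.16).

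Tnfrsf18, Il10 and Ctla4 varied together among arrays of the same group. After the mean of its group was taken from each array's log2 ratio, Tnfrsf18 and Il10 correlated over 18 arrays with Pearson's r = 0.88 (permutation p within groups 9e-05; adjusted over 28 relations 0.00252) and Spearman's rho = 0.92 (permutation p 1e-04; adjusted 0.0028). Without the 2 arrays farthest from the median of Tnfrsf18 r was 0.86. Within slides, with the mean of group and slide taken away, r was 0.92 over the 8 arrays of slide 1 and 0.93 over the 6 arrays of slide 2, while slide 3 held too few arrays. BN procainamide 2 and 3 were the arrays of that group high in both genes, and SD procainamide 3 was low in both.

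Ctla4 and Il10 gave r = 0.81 (permutation p 2e-04; adjusted 0.0028) and rho = 0.83 (permutation p 2e-04; adjusted 0.0028), with r = 0.71 without 2 arrays and 0.85 and 0.55 on slides 1 and 2. Ctla4 and Tnfrsf18 gave r = 0.69 (permutation p 0.00249; adjusted 0.0232) and rho = 0.75 (permutation p 0.00194; adjusted 0.0181), with r = 0.60 without 2 arrays and 0.78 and 0.31 on slides 1 and 2. Array brightness moved with Ctla4 as well: r = 0.63 (permutation p 0.00828; adjusted 0.058) and rho = 0.67 (permutation p 0.00498; adjusted 0.0349). With Tnfrsf18 brightness gave r = 0.39 (permutation p 0.205; adjusted 0.338) and rho = 0.40 (permutation p 0.163; adjusted 0.268). With Il10 it gave r = 0.57 (permutation p 0.022; adjusted 0.088) and rho = 0.59 (permutation p 0.0208; adjusted 0.0971). The part of brightness in these relations was not tested. Foxp3 showed no such relation with any of the other 6 genes, with r between -0.39 and 0.18 and adjusted p-values of 0.248 or more.

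**Figure D5:**
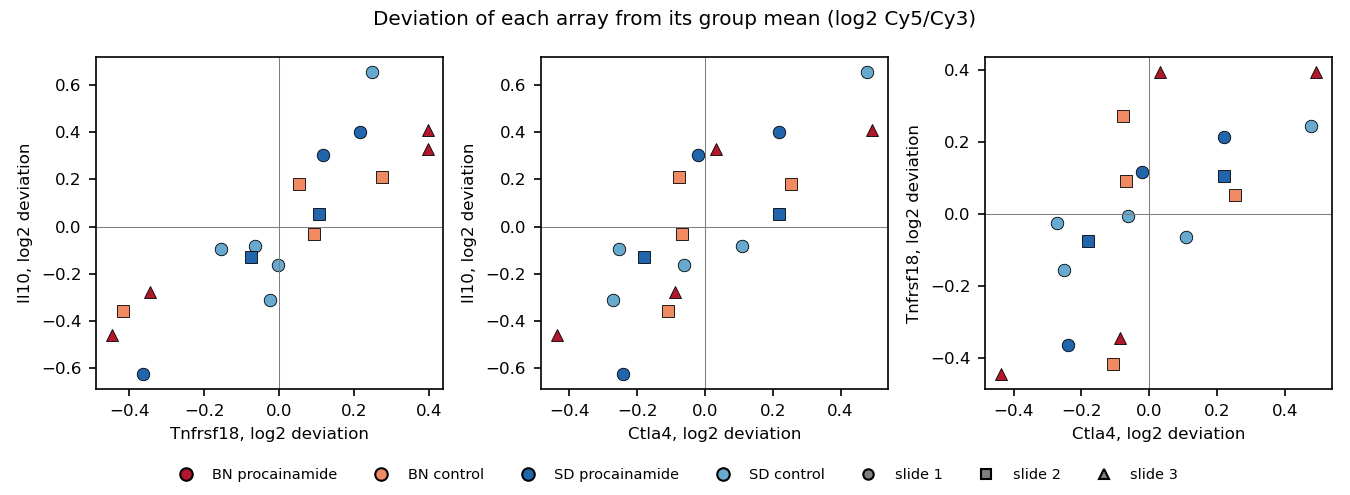
Deviation of each of 18 arrays from its group mean in log2 Cy5/Cy3 for 3 pairs of genes, Il10 against Tnfrsf18, Il10 against Ctla4 and Tnfrsf18 against Ctla4, with colour the group and shape the slide. The points rise together in each panel, with r = 0.88, 0.81 and 0.69.

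The genes whose log2 ratios followed each responding gene most closely over the 18 arrays, among 13615 genes, are given as a description, and these arrays share the differences between groups. For Il21 they were Psmb10 (Pearson's r = 0.954), Ggt1 (r = 0.941) and Irf1 (r = 0.928). For Ctla4 they were Fas (r = 0.896), Tnfaip6 (r = 0.884) and Hspa13 (r = 0.877). For Ccr6 they were Zfp142 (r = 0.941), Zc3h7a (r = 0.94) and Satb1 (r = 0.933).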

How the data were processed

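Feature Extraction 10.7.1.1 measured the median intensity of each spot and its local background, without normalization, per the file headers. The log10 ratios and processed intensities (background-subtracted, spatially detrended and dye-normalized) also came from that program, per the file headers (array design 028279). The authors' deposited matrix of log2 values has no stated scale, centring or direction. Each column followed the scanner ratio with a slope of 1 (r of 0.999 to 1), so it holds log2 Cy5/Cy3 with no gene centred, with column medians from -0.014 to 0.0653. How its probes were chosen is not given in the sources used here.

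Median intensities were corrected with normexp (offset 50) and normalized by loess within arrays, control spots at weight 0, in limma 3.58.1 (R 4.3.3). Spots of a probe were averaged without marked outliers, unless none was left (0.0741% of values). RefSeq accessions gave 18355 of 30367 probes 1 symbol of the GRCr8 gene table. Tests covered the 26446 probes that passed the filter on dim signal (13616 named genes, each represented by its brightest probe over both channels). No spot was saturated.

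A mean for each of the 4 groups was fitted over all 18 arrays with lmFit and eBayes (14 residual degrees of freedom, 2-sided), with Benjamini-Hochberg adjustment over all tested probes and a threshold of 0.05. Log2 ratios were used for drug responses, and log2 Cy5 after loess and Aquantile for strains. The procedure was tested on simulated data, and precision is limited by how many arrays there are. All 9 genes are named, with up to 4 genes of smallest p from each list and every partner that passed. The genes and lists were chosen with earlier results of these data known. Alternatives covered values, channel, background, filter, probe choice, normalization, scan day, slide, brightness, arrays in the fit and each array left out.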

Additional observations from a re-analysis of the deposited data

Results flagged for a closer look

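Among 36 sets of 4 or 5 arrays, formed from 9 probes in 4 groups, 2 held an array far from the rest by Dixon's criterion, which chance meets in about 1 of 20. Ctla4 stood at -0.15 (log2 ratio) in BN control 2, where the other 3 BN controls lay between -0.51 and -0.47. Il10 stood at 0.68 in SD control 3, where the other 4 SD controls lay between -0.29 and -0.06. Without BN control 2 the Ctla4 response of BN was 0.68, and it was 0.60 with it.

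The responses of the strains to procainamide differed for Ctla4, by 0.81, and for Ccr6, by 0.78, in the test of the difference itself. Both values are BN response minus SD response on the log2 scale. The Ctla4 call was lost when any 1 of 12 of the 18 arrays was left out and the Ccr6 call when any 1 of 8 was. Both were lost with scan day, array brightness or the replicate block, and the second Ctla4 probe did not pass (adjusted p = 0.408).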

How the results depend on the processing

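Over the 728 single-gene results of the alternatives, 651 kept their direction and side of the threshold, 52 lost a call, 8 gained one and 17 changed sign, none of these called. Il21 in both drug responses and Foxp3 between the treated strains held in every alternative run. Of 3 genes called in the BN response, 1 remained, Il21, with scan day or array brightness as a term, in a fit of the arrays compared, and with a replicate block; all probes called then numbered 209, 685, 2801 and 3581, against 5757, and 10184 in Cy5 alone, where 44.6% of calls were higher, against 35.3%. With the mean over probes 2 were called, Ctla4 being lost, and without each array in turn 2 to 3 genes were called. Replicate numbers did not pair arrays (correlations of deviations from -0.523 to 0.129). In SD 1 gene was called throughout. For the difference between responses the 2 calls became 1 with the scanner's processed log ratios, with the mean over probes and with slide as a random block, 5 in Cy5 alone, with Il21, Foxp3 and Il10 gained (43% of all calls higher, against 23.2%), and 0 with scan day, brightness or the replicate block (0, 2 and 2 genes at unadjusted p under 0.05 in limma); without each array, 0 to 2. Between controls, 3 calls became 0 with scan day or brightness (2 and 3 genes at unadjusted p under 0.05) and 2, without Ccr6, with slide as a random block or processed signals; without each array, 3. Between treated strains 2 to 3 genes were called, and with processed Cy5 signals 27.6% of all calls were higher, against 42%. Sign changes were as follows. In the BN response Tnfrsf18 gave 0.19 in Cy5 alone, Il2ra -0.01 with scan day, and Foxp3 0.02, Il2ra -0.23 and Il10 -0.19 with brightness; without each array Il2ra gave -0.10 to 0.08 and Tnfrsf18 -0.24 to 0.05. Between responses Il2ra gave 0.03 with processed ratios, and Tnfrsf18 -0.24 and Il10 -0.12 with brightness. Between controls Il2ra gave 0.10 and Il10 0.03 with brightness, and Foxp3 -0.13 to 0.05 without each array. The cause was not tested. Dim signal limits Il21 in BN control, Ccl20 in SD control, Ikzf2 and Il2.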
